A study of Mus musculus with 6 samples.

Results

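Immunoglobulin variable (V) segment genes are described here. The members were chosen by gene type and summed counts: every row of the deposited gene table with the type IG_V_gene whose expected counts, summed over the 6 libraries, reached 10. Of 55573 genes in the table, 218 were V segment rows and 202 reached that sum, 100 at the heavy chain locus (Ighv, chromosome 12), 99 at the kappa light chain locus (Igkv, chromosome 6) and 3 at the lambda light chain locus (Iglv, chromosome 16). The threshold is set on counts pooled over both genotypes. The sums ran from 10 to 19110 with a median of 536. Just outside the threshold were Gm42543 with 9 counts, Ighv8-9 with 8 and Igkv20-101-2 with 5, and just inside were Ighv8-11 with 10, Igkv1-35 with 11 and Igkv3-3 with 13.

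The study sequenced RNA of 6 mouse samples labelled megakaryocytes, 3 of wild-type genotype (WT) and 3 of genotype Abcc4-/-. Megakaryocytes form platelets in the bone marrow, and CD41, named in the sample titles, is a surface protein of that lineage. Abcc4 encodes a membrane transporter that exports cyclic nucleotides and nucleotide-type drugs. No treatment is given for any sample, and strain, age, the form of the Abcc4 deletion and whether the samples of a genotype came from separate animals are not given in the sources used here. P-values therefore rest on how much samples of a genotype differ, which could be technical variation.

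V segments encode most of the antigen-binding part of an antibody. A B cell joins one of many germline V segments to a J segment (with a D segment between them in the heavy chain) by cutting and rejoining its DNA, and the promoter of the joined segment then drives a transcript that runs into a constant gene. Each mature B cell or plasma cell thus transcribes mainly the few segments it joined, whereas megakaryocytes are not known to rearrange these loci. In a bulk sample, fewer cells of a type and less RNA per cell cannot be told apart.

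Libraries held 50440283 to 55123551 counts in WT and 67009967 to 99294509 in Abcc4-/-, so a pooled count threshold draws more from Abcc4-/-. The sum of 10 was reached in both genotypes by 186 members, in Abcc4-/- alone by 13, in WT alone by 0 and in neither genotype alone by 3. Abcc4 itself lay between 71.8 and 75.7 CPM (counts scaled to library size) in WT and between 60.1 and 62.3 in Abcc4-/-, and fell by 0.28 on the log2 scale (edgeR quasi-likelihood test, adjusted p = 0.0026). Gene counts do not show whether its remaining reads lie in the deleted part. The megakaryocyte markers were present in all libraries, with a summed level of 496 to 554 CPM in WT and 439 to 483 CPM in Abcc4-/-. Of the 12, 7 fell while 2 rose, beside 8.68% of all genes tested that fell and 8.61% that rose. Neutrophil markers summed far higher, to 23082 to 29926 CPM in WT and 40371 to 42963 CPM in Abcc4-/-. Such sums depend on the genes listed and do not give shares of cells.

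The germline V exons of 5 kappa segments carry the main points on single segments and on shared reads, and are printed from the GENCODE M21 annotation of GRCm38, all on chromosome 6. The first set holds Igkv5-43 (chr6:69823355-69823652, minus strand), which rose, its near copy Igkv5-45 (chr6:69775750-69776047, minus strand) and Igkv5-39 (chr6:69900424-69900721, minus strand), which fell. Capitals in Igkv5-45 and Igkv5-39 mark bases that differ from Igkv5-43 at the same place, 3 of 298 and 26 of 298.
Igkv5-43: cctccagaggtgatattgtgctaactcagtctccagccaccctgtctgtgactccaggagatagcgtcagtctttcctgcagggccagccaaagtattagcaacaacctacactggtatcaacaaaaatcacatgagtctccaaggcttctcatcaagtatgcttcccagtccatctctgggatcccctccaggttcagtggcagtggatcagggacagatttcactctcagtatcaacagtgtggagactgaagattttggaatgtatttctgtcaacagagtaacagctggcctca
Igkv5-45: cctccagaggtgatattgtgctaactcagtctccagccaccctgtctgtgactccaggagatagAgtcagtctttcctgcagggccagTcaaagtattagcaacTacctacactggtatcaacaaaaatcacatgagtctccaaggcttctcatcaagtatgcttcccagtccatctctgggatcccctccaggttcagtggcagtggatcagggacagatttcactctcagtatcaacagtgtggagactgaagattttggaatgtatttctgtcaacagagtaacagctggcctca
Igkv5-39: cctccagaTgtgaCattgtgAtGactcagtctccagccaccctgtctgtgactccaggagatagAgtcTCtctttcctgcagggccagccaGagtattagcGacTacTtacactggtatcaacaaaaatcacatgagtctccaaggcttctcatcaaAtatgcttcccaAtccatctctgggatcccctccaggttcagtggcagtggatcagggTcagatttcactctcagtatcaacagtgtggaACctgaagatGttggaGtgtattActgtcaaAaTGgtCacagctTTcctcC

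The second set holds the pair with the highest mean kappa levels per length, Igkv1-117 (chr6:68121515-68121814, plus strand) and Igkv1-110 (chr6:68270955-68271254, plus strand), each shown for the first 300 of its 313 bases. Capitals mark the 10 bases at which each differs from the other. A read of 100 bases that falls within a stretch without capitals cannot be given to either segment by sequence alone.
Igkv1-117: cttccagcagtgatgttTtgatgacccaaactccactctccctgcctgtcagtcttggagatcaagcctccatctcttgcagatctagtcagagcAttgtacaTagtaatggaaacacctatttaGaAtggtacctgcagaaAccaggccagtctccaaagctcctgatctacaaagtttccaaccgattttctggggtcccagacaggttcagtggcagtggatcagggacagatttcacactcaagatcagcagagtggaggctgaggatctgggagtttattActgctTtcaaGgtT
Igkv1-110: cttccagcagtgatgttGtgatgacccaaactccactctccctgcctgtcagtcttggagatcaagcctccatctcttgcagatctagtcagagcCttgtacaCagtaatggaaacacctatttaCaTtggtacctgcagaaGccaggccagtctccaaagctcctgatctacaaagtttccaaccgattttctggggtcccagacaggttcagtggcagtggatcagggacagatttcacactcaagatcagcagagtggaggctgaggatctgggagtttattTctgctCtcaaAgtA

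Summed over each locus, V transcripts overlapped between the genotypes at the heavy and kappa loci, and the lambda sum was higher in each Abcc4-/- library in CPM. All 202 members together made up 0.0453% to 0.0682% of the counts of a library. Heavy V segments summed to 151, 205 and 174 CPM in WT replicates 1, 2 and 3 and to 240, 169 and 200 CPM in Abcc4-/- replicates 1, 2 and 3. The highest value was Abcc4-/- replicate 1 and the lowest WT replicate 1, and the other 4 lay between with the genotypes mixed. The means were 177 ± 27.0 CPM for WT and 203 ± 35.5 for Abcc4-/- (SD, n = 3 each), a ratio of 1.15. No p is given for these sums, since the members were chosen with earlier results known.

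Kappa V segments summed to 284, 356 and 284 CPM in WT and to 391, 277 and 361 CPM in Abcc4-/-. Abcc4-/- replicate 2 was the lowest of the 6, and WT replicate 2 lay next to Abcc4-/- replicate 3. The means were 308 ± 41.8 and 343 ± 59.0 CPM (SD, n = 3 each), a ratio of 1.11. The 3 lambda segments summed to 19.1, 30.2 and 34.1 CPM in WT and to 58.7, 34.9 and 34.4 CPM in Abcc4-/-. The genotypes did not overlap on this scale, but WT replicate 3 lay just below Abcc4-/- replicate 3, and Abcc4-/- replicate 1 stood far above the rest. The lambda means were 27.8 ± 7.79 and 42.7 ± 13.9 CPM (SD, n = 3 each), a ratio of 1.53. In TPM, which divides counts by gene length before scaling within a library, the lambda sums overlapped, at 130, 197 and 243 in WT and 373, 230 and 228 in Abcc4-/-.

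**Figure D1:**
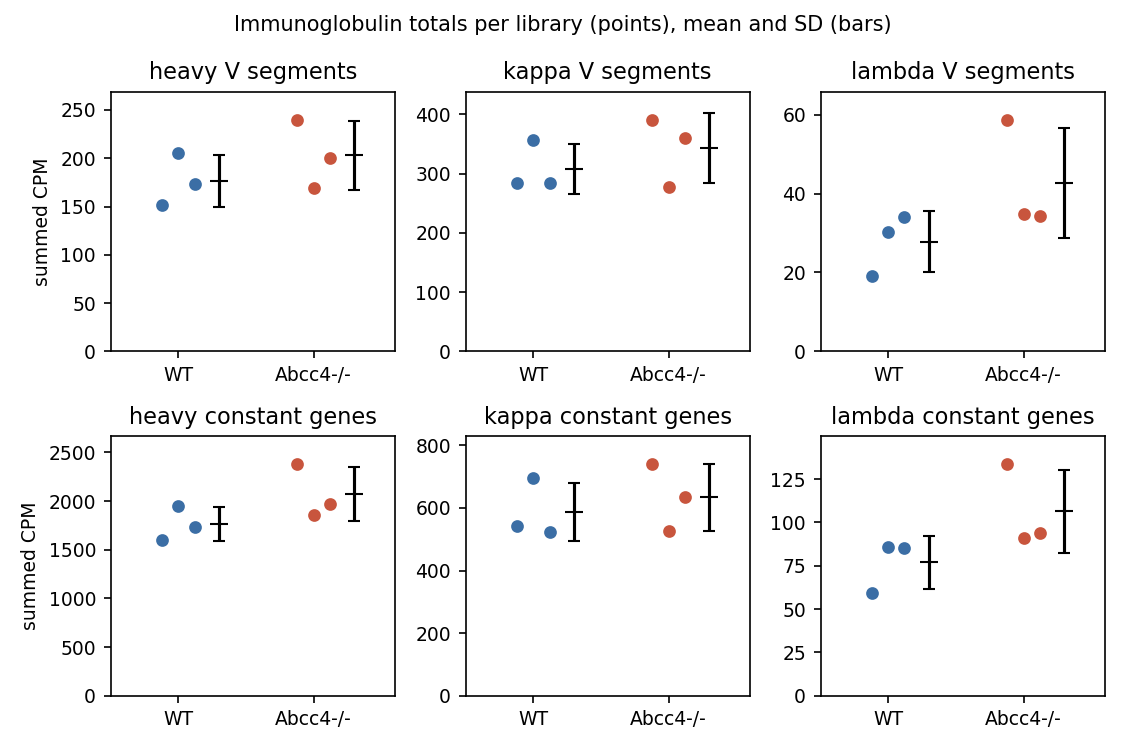
Summed CPM per library (points; vertical axes start at 0) for V segments (top) and constant genes (bottom) of the heavy, kappa and lambda loci in WT and Abcc4-/-, with mean and SD (bars, n = 3 each). Heavy V sums of 151 to 205 CPM in WT and 169 to 240 CPM in Abcc4-/- overlap, as do kappa V sums of 284 to 356 and 277 to 391 CPM.

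Per length, the kappa segments gave the largest sum, 2219 ± 219 TPM in WT and 2332 ± 380 TPM in Abcc4-/-. Heavy segments followed with 1314 ± 158 and 1444 ± 235 TPM, and lambda segments with 190 ± 56.7 and 277 ± 83.4 TPM (SD, n = 3 each). Heavy segments held 33.3% to 35.3% of V counts and kappa segments 56.7% to 62.5%. The lambda share varied more, from 4.20% in WT replicate 1 to 8.51% in Abcc4-/- replicate 1. Its means were 5.41 ± 1.40% in WT and 7.18 ± 1.37% in Abcc4-/-, with overlapping libraries.

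Constant genes form the other part of transcripts from joined segments, and their sums also overlapped at the heavy and kappa loci. Gene counts do not show which constant gene reads come from a transcript that carries a V segment. Lambda constant genes summed to 76.9 ± 15.1 CPM in WT and 106 ± 23.8 CPM in Abcc4-/-, without overlap in CPM but with overlap in TPM. Heavy V counts per 100 heavy constant counts were 9.997 ± 0.535 in WT and 9.78 ± 0.590 in Abcc4-/-. The kappa ratio was 52.6 ± 1.42 and 54.1 ± 2.45, and the lambda ratio 35.7 ± 4.02 and 39.6 ± 3.82 (SD, n = 3 each), and each of these ratios overlapped between the genotypes. Of 11 constant genes tested, 2 rose and 0 fell, beside 17.3% of all genes called in either direction: Ighm, the constant gene of IgM, with a log2 fold change of 0.27 (edgeR adjusted p = 0.0272), and Ighg2b, that of IgG2b, with 1.002 (edgeR adjusted p = 0.0214). Ighg2b stood at 45.2, 42.0 and 35.5 CPM in WT and 69.2, 102 and 74.2 CPM in Abcc4-/-. Igkc, the only kappa constant gene, had a log2 fold change of 0.11 (edgeR adjusted p = 0.700). Switched classes made up 34.5 ± 3.81% of heavy constant counts in WT and 32.9 ± 3.59% in Abcc4-/-.

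Among single segments, 14 rose and 6 fell in Abcc4-/-. Of the 202 members, 166 passed the filter on low counts and were tested, and 20 of them (12.05%) were called at an adjusted p below 0.05, against 17.3% of all 16493 genes tested. The 14 that rose stand beside 8.61% of all genes that rose, and the 6 that fell beside 8.68% that fell. The share called was below that background with the edgeR test. DESeq2 called 36 of 198 members (18.2%) and 17.3% of all genes to which it gave an adjusted p. The 198 may include members without an adjusted p, so these 2 shares are not ranked. By locus, 8 heavy segments rose and 1 fell among 83 tested, 5 kappa segments rose and 5 fell among 80 tested, and 1 of 3 lambda segments rose. Of the tested members, 18 reached the filter's level in all Abcc4-/- libraries but not in all WT libraries and 3 the reverse, so counts over the tested members lean towards Abcc4-/-. With all 202 members tested, 13 rose and 6 fell, 9.41% against 13.7% of all genes under that filter.

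Fold changes of single segments were wide even where no call was made. The median log2 fold change of the tested members was 0.40, with 118 above 0 and 48 below, beside a median of 0.00 for all genes tested. The lean of the filter towards Abcc4-/- applies to these values too, and segments measured in the same libraries are not independent. A change of at least 1 on the log2 scale was estimated for 45 members, 27.1%, against 3.72% of all genes. Groups did not overlap in CPM for 38 members, 22.9%, against 36.8% of all genes tested. The median standard error of the log2 fold change was 0.46 for members and 0.08 for all genes.

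**Figure D2:**
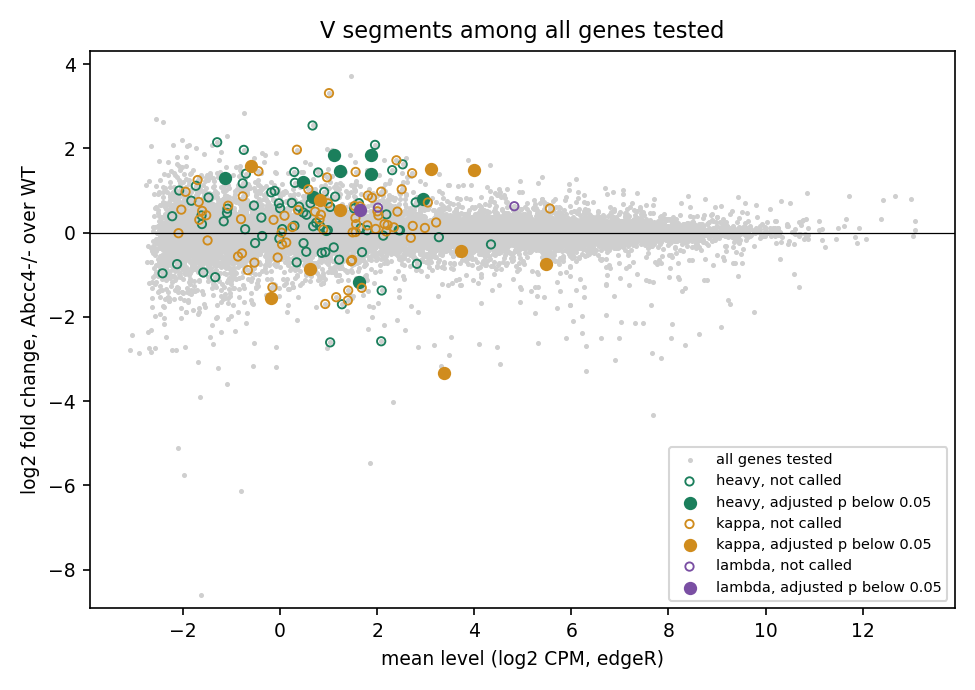
Log2 fold change (Abcc4-/- over WT) against mean level (log2 CPM) for all 16493 genes tested (grey) and the 166 tested V segments (heavy, kappa and lambda in color; filled where the edgeR adjusted p was below 0.05). V segments spread from -3.33 to 3.31, and 20 of them are filled.

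Several heavy segments of the largest family, Ighv1, were among those that rose. Ighv1-39 was measured at 0.982, 0.749 and 0.882 CPM in WT and at 3.47, 3.29 and 2.61 CPM in Abcc4-/-. Every Abcc4-/- library was above every WT library, with a gap wider than the spread within either genotype. Its log2 fold change was 1.84 (SE 0.17, edgeR adjusted p = 4.25e-05). Ighv1-76 stood at 1.55, 0.867 and 1.07 CPM in WT and at 3.20, 3.76 and 2.66 CPM in Abcc4-/-. Its groups also did not overlap, and its log2 fold change was 1.46 (SE 0.21, edgeR adjusted p = 0.00113). Ighv3-6, of another family, stood at 2.11, 2.29 and 1.43 CPM in WT and 4.86, 3.97 and 6.49 CPM in Abcc4-/-. All 3 Abcc4-/- values exceeded the WT values, and the log2 fold change was 1.39 (SE 0.22, edgeR adjusted p = 0.00356). Of the 20 called segments, Ighv1-39, Ighv1-76 and Ighv3-6 kept the call in each of the 16 alternative analyses, with adjusted p at most 0.00093, 0.0101 and 0.0353. Every window of 100 bases, the read length, in these 3 segments is found in no other annotated transcript. With DESeq2 size factors, library totals only, limma-voom and joined copies, 20, 20, 16 and 15 members or joined features were called. These were 12.05%, 12.05%, 9.64% and 12.3% of those tested, against 17.2%, 16.8%, 17.2% and 17.4% of all genes.

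Ighv7-1 had the largest rise among called segments, from 0.873, 2.21 and 1.49 CPM in WT to 6.53, 3.37 and 6.55 CPM in Abcc4-/-. Its groups did not overlap, but the WT values spread widely relative to their mean. A log2 fold change of 1.85 was estimated (SE 0.42, edgeR adjusted p = 0.0405), and the call was lost when replicate 1 or 3 of either genotype was left out (adjusted p from 0.0685 to 0.142). Ighv1-26, which ranked second in mean level among heavy segments with 60.5 TPM, stood at 4.34, 6.46 and 5.79 CPM in WT and 11.3, 9.18 and 8.25 CPM in Abcc4-/-. Groups were apart, and the log2 fold change was 0.79 (SE 0.16, edgeR adjusted p = 0.0122). Joined with 4 near copies it gave 0.56 (edgeR adjusted p = 0.254).

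The other 3 heavy segments that rose were low. Ighv5-12 had means of 0.233 ± 0.0962 and 0.581 ± 0.203 CPM (SD, n = 3 each) and a log2 fold change of 1.298 (edgeR adjusted p = 0.0303), which was lost without WT replicate 1 or 3 or Abcc4-/- replicate 1 (0.0639 to 0.123). Ighv1-42 had means of 0.80 ± 0.252 and 1.84 ± 0.683 CPM and a log2 fold change of 1.20 (edgeR adjusted p = 0.0353), lost when replicate 1 or 3 of either genotype was left out (0.0865 to 0.131). Ighv1-75 had means of 1.08 ± 0.318 and 1.96 ± 0.387 CPM and a log2 fold change of 0.85 (edgeR adjusted p = 0.0263), lost when any library other than WT replicate 2 was left out (0.0509 to 0.0810). The groups of these segments did not overlap. Ighv1-75 joined with 2 near copies gave 0.93 (edgeR adjusted p = 0.128).

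Ighv1-9 was the only heavy segment that fell, from 2.91, 4.45 and 5.81 CPM in WT to 2.41, 1.83 and 1.62 CPM in Abcc4-/-. The lowest WT library lay close to the highest Abcc4-/- library. Its log2 fold change was -1.17 (SE 0.26, edgeR adjusted p = 0.0194), and leaving out replicate 2 of either genotype or Abcc4-/- replicate 3 ended the call (0.0641 to 0.0826).

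Among kappa segments, Igkv15-103, the only member of its family here, with a mean level of 111 TPM, stood at 6.35, 11.0 and 7.57 CPM in WT and 22.1, 20.0 and 27.9 CPM in Abcc4-/-. The lowest Abcc4-/- value was well above the highest WT value. Igkv15-103 had a log2 fold change of 1.49 (SE 0.24, edgeR adjusted p = 0.0156), and 0.0800 without WT replicate 3. Igkv5-43 stood at 2.62, 5.64 and 4.86 CPM in WT and 13.4, 10.8 and 13.2 CPM in Abcc4-/-. Groups were again apart, with a log2 fold change of 1.52 (SE 0.28, edgeR adjusted p = 0.0197), lost when replicate 3 of either genotype was left out (0.0715 to 0.0842). Its near copy Igkv5-45, printed above, was measured at no more than 0.602 CPM in any library, and the 2 joined gave 1.47 (edgeR adjusted p = 0.0183).

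Igkv5-39 had the largest fall, from 34.4, 8.93 and 15.2 CPM in WT to 1.66, 1.79 and 2.38 CPM in Abcc4-/-. The Abcc4-/- libraries were all low and close together, while the WT libraries differed among themselves, WT replicate 1 standing highest. Its log2 fold change was -3.33 (SE 0.65, edgeR adjusted p = 0.0383), and the call was lost without WT replicate 3 or any Abcc4-/- replicate (0.0864 to 0.145). Igkv5-39 and Igkv5-43 belong to the same family and lie next to each other in the locus order of that family, yet moved in opposite directions. The Igkv5 family sum overlapped, at 39.4, 17.0 and 22.9 CPM in WT and 17.8, 15.9 and 19.4 CPM in Abcc4-/-.

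Igkv1-117, among the most abundant V segments with 277 TPM, fell from 54.5, 62.6 and 51.4 CPM in WT to 36.1, 29.9 and 34.9 CPM in Abcc4-/-. The groups did not overlap and were each tight. The log2 fold change was -0.74 (SE 0.09, edgeR adjusted p = 0.000696), and the call held whichever 1 of the 6 libraries was left out. Its copy Igkv1-110, with 292 TPM, stood at 46.3, 34.0 and 33.0 CPM in WT and 74.1, 26.6 and 68.3 CPM in Abcc4-/-. The Abcc4-/- values lay on both sides of the WT values, and the log2 fold change was 0.57 (SE 0.46, edgeR adjusted p = 0.488). Without Abcc4-/- replicate 2 the log2 fold change of Igkv1-110 was 0.92 and it was called (edgeR adjusted p = 0.0221). Summed CPM of the pair were 93.9 ± 8.47 for WT and 89.95 ± 29.2 for Abcc4-/- (SD, n = 3 each), and joined before the test it gave a log2 fold change of -0.065 (edgeR adjusted p = 0.916).

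**Figure D3:**
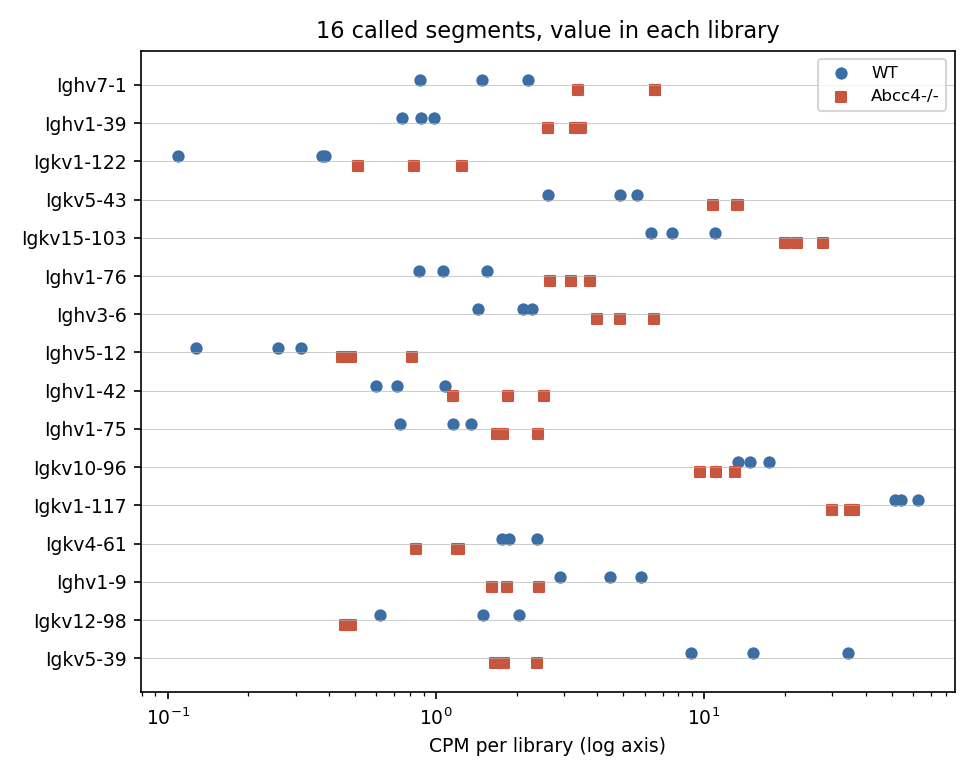
CPM in each library (log axis; circles WT, squares Abcc4-/-) for the 10 called segments with the largest rises and the 6 that fell. Igkv5-39 spans 8.93 to 34.4 CPM in WT and 1.66 to 2.38 CPM in Abcc4-/-, and the groups of each of these segments do not overlap.

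The other kappa falls were smaller or lower in level. Igkv12-98 stood at 0.619, 1.498 and 2.04 CPM in WT and 0.483, 0.466 and 0.458 CPM in Abcc4-/-. WT replicate 1 lay near the Abcc4-/- libraries. The log2 fold change was -1.56 (SE 0.38, edgeR adjusted p = 0.0251), lost without WT replicate 2 or any Abcc4-/- replicate (0.0779 to 0.0990). Igkv4-61 had means of 2.01 ± 0.336 and 1.09 ± 0.213 CPM and a log2 fold change of -0.87 (edgeR adjusted p = 0.00947). Joined with 9 near copies of its family the direction turned, to 0.96 (edgeR adjusted p = 0.0680). Igkv10-96 had means of 15.3 ± 2.07 and 11.3 ± 1.69 CPM and a log2 fold change of -0.44 (edgeR adjusted p = 0.0487), lost when replicate 1 or 3 of either genotype was left out (0.106 to 0.135). Joined with Igkv10-94 and Igkv10-95 it gave -0.27 (edgeR adjusted p = 0.0350).

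Another 3 kappa segments rose. Igkv1-122 had means of 0.290 ± 0.157 and 0.866 ± 0.372 CPM (SD, n = 3 each) and a log2 fold change of 1.59 (edgeR adjusted p = 0.0465), lost without any library other than Abcc4-/- replicate 1 (0.0656 to 0.113). Igkv3-7 and Igkv5-48 lay outside the naming rule and were named after their values were seen. Igkv3-7 had a log2 fold change of 0.78 (edgeR adjusted p = 0.0318), lost when replicate 1 or 2 of either genotype was left out (0.0673 to 0.126), and joined with Igkv3-12 it turned to -0.12 (edgeR adjusted p = 0.799). Igkv5-48 had a log2 fold change of 0.53 (edgeR adjusted p = 0.0405), lost when WT replicate 1 or 3 or Abcc4-/- replicate 2 or 3 was left out, at 0.0842 to 0.148.

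Of the lambda segments, Iglv3 rose from 1.95, 2.54 and 2.96 CPM in WT to 3.82, 3.58 and 3.38 CPM in Abcc4-/-. The groups did not overlap. The log2 fold change was 0.53 (SE 0.15, edgeR adjusted p = 0.0333), lost when replicate 1 or 2 of either genotype was left out (0.0685 to 0.113). Iglv1, which held 79.7% of lambda V counts, stood at 15.3, 23.8 and 27.5 CPM in WT and 50.3, 25.5 and 27.2 CPM in Abcc4-/-. Only Abcc4-/- replicate 1 lay outside the WT range, and the log2 fold change was 0.63 (SE 0.39, edgeR adjusted p = 0.369). Iglv2 stood at 1.88, 3.89 and 3.69 CPM in WT and 4.62, 5.76 and 3.82 CPM in Abcc4-/-, with a log2 fold change of 0.59 (SE 0.29, edgeR adjusted p = 0.220).

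The most abundant heavy segments apart from Ighv1-26 were not called. Ighv1-81, first among heavy segments with 164 TPM, stood at 26.1, 22.8 and 18.0 CPM in WT and 25.4, 11.6 and 18.4 CPM in Abcc4-/-. The genotypes were mixed, and the log2 fold change was -0.28 (SE 0.34, edgeR adjusted p = 0.651). Ighv1-55 with 56.5 TPM, Ighv8-8 with 52.2 TPM and Ighv1-53 with 44.6 TPM had log2 fold changes of -0.11, 0.72 and 0.05 (edgeR adjusted p = 0.618, 0.577 and 0.958).

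V use was spread over many segments, and its spread overlapped between the genotypes. Ighv1-81 held the largest part of the heavy V TPM in every library, 18.8%, 12.3% and 11.5% in WT and 11.7%, 7.62% and 10.1% in Abcc4-/-. Among kappa segments Igkv1-117 was the largest in the 3 WT libraries and Abcc4-/- replicate 2, and Igkv1-110 in the other 2. The effective number of segments, the inverse of the summed squared shares, was 17.1, 28.1 and 29.8 for heavy TPM in WT and 28.5, 36.5 and 32.3 in Abcc4-/-. For kappa TPM it was 12.5, 22.3 and 19.4 in WT and 19.6, 27.0 and 18.5 in Abcc4-/-. WT replicate 1 was the most concentrated library at both loci. The means were 25.002 ± 6.88 and 32.4 ± 4.0 for heavy segments and 18.1 ± 5.02 and 21.7 ± 4.63 for kappa segments (SD, n = 3 each).

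Single libraries often stood apart at single segments. For 32 of the 166 tested members, 19.3%, the highest library of a genotype was at least 3 times the next of that genotype, against 0.558% of all genes tested. WT replicate 2 was that library for 13 members, Abcc4-/- replicate 1 for 7, Abcc4-/- replicate 3 for 5, Abcc4-/- replicate 2 for 4, WT replicate 3 for 3 and WT replicate 1 for 0. The next 3 segments were chosen after their values were seen. Igkv4-70 had 8.98 CPM in Abcc4-/- replicate 1 and 0.201 to 0.868 CPM in the other 5 libraries, and its log2 fold change of 3.31 had an SE of 1.49 (edgeR adjusted p = 0.230). Igkv8-16 had 7.97 CPM in WT replicate 2 and at most 1.10 CPM elsewhere. Igkv4-72 had 14.97 CPM in Abcc4-/- replicate 3 and at most 4.35 CPM elsewhere.

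The biological coefficient of variation, which edgeR estimates for each gene as the relative spread between samples beyond counting, had a median of 0.352 for members and 0.0728 for all genes tested. Among genes with a mean of at least 1 CPM the medians were 0.355 for 115 members and 0.0625 for all genes. The difference was as large among these more abundant genes.

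**Figure D4:**
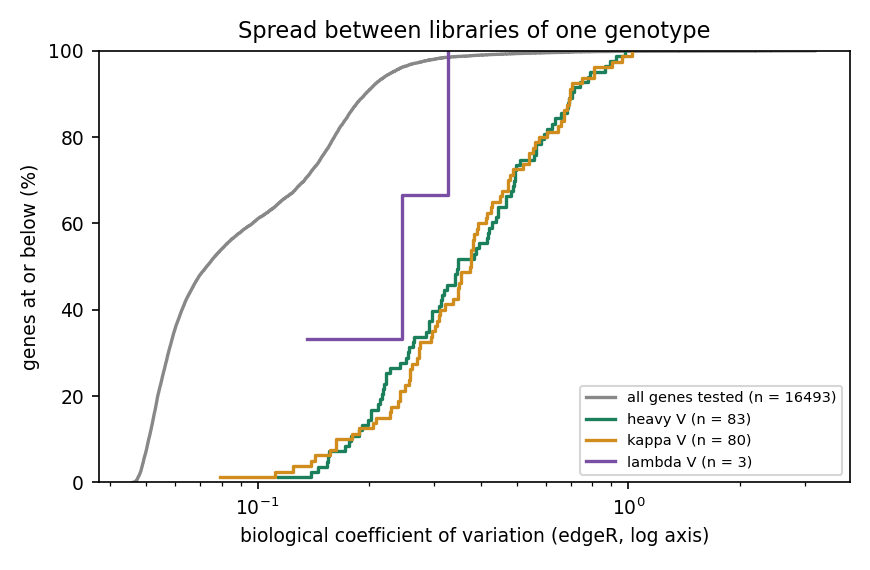
Percent of genes at or below a given biological coefficient of variation (log axis) for all genes tested, heavy V, kappa V and lambda V segments. The heavy and kappa curves lie to the right of that of all genes, with medians of 0.348 and 0.375 against 0.0728.

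V segments resemble each other, and RSEM divides a read that fits several genes among them, which leaves values that are not whole. Of the member values, 40.3% were not whole (tolerance 0.005), against 18.0% for the 20517 genes with the same summed count. The median identity of a member's coding sequence to its nearest other V row was 95.2%, and 102 members had a copy at least 95% identical. In 122 members every window of 100 bases occurred in no other transcript of the annotation, and in 80 some windows were shared. Values were not whole in 15.8% of the former and 77.7% of the latter. Calls were made for 13 of 100 tested members of the first kind and for 7 of 66 (10.6%) of the second. Of all genes tested, 17.3% were called, a larger share than in either kind.

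The calls of Igkv5-39, Ighv7-1, Igkv15-103, Ighv1-39, Ighv1-76, Ighv3-6, Ighv1-9 and Igkv12-98 rest on whole values only. Igkv5-43 had 66.4% of its windows to itself, Igkv1-117 83.9% and Igkv1-110 83.8%, and all their values were not whole. When members at least 95% identical were joined, 36 groups took in 95 members, and 15 of the 20 called segments lay in a feature that was still called in the same direction.

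By family, named by the number after Ighv, Igkv or Iglv, most sums overlapped. Ighv1, with 50 members, held 58.5% of heavy V counts, and its sums were 107 ± 4.98 CPM in WT and 118 ± 32.9 CPM in Abcc4-/-. Igkv1 held 31.6% of kappa V counts, with 105 ± 6.36 and 105 ± 32.8 CPM. The families with several members whose groups did not overlap were Ighv3, at 3.87 ± 0.346 and 7.02 ± 1.13 CPM, Igkv12, at 12.4 ± 1.59 and 15.99 ± 2.84 CPM, and Igkv10, at 17.9 ± 1.05 and 14.9 ± 1.39 CPM (SD, n = 3 each). Among all single genes tested, 36.8% had groups that did not overlap. The Ighv3 difference lay almost wholly in Ighv3-6, with means of 1.94 CPM in WT and 5.11 CPM in Abcc4-/-. Of the 3 Igkv10 members 1 was called, and it fell. The Igkv12 groups were barely apart, with 13.993 CPM in the highest WT library and 14.265 CPM in the lowest Abcc4-/- library.

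Position along the locus showed no shift of use between the genotypes beyond the spread. The 25 heavy segments farthest from the first J segment, at 1864 to 2570 kb, held 37.3 ± 6.49% of heavy V counts in WT and 34.9 ± 2.09% in Abcc4-/-. The 24 kappa segments farthest from J, at 2152 to 3167 kb, held 48.7 ± 2.60% and 49.0 ± 2.38% (SD, n = 3 each). When each locus was cut into 4 runs of nearly equal segment number, the shares of all 8 overlapped. Kappa segments lie on both strands, so that some join by inversion and others by deletion of the DNA between. The 37 on the strand of Igkc held 56.5 ± 1.31% of kappa V counts in WT and 56.1 ± 3.16% in Abcc4-/-.

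**Figure D5:**
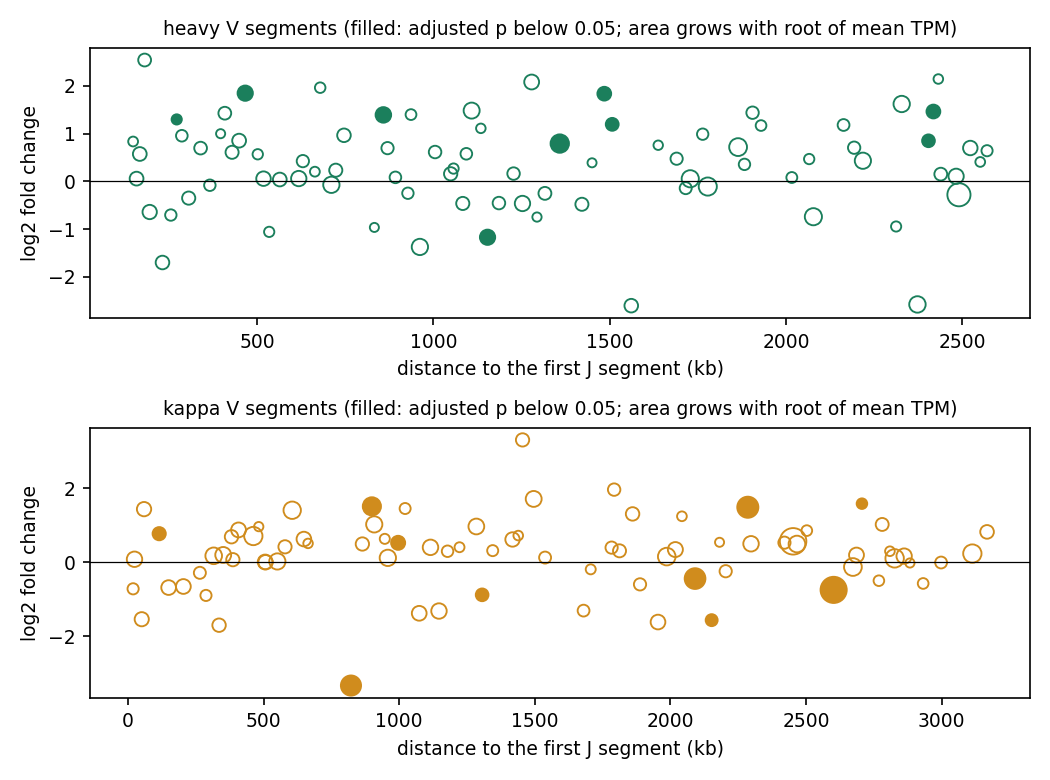
Log2 fold change of tested heavy (top) and kappa (bottom) V segments against distance from the first J segment of the locus (kb). Filled circles had an edgeR adjusted p below 0.05 and circle area grows with mean TPM; called segments lie from 272 to 2418 kb at the heavy locus and from 115 to 2706 kb at the kappa locus.

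Other rows of these loci held few counts. The 19 D segment rows held 0 counts, and of 14 J segment rows 1 had 2 counts in all. Of 158 V pseudogene rows 53 had counts, and they made up 0.476 ± 0.152% of V row counts in WT and 0.442 ± 0.0766% in Abcc4-/-. Of these, 4 were tested and 0 were called by the edgeR test.

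Markers of the cells that transcribe V segments moved unevenly. As background for the counts below, 8.61% of all genes tested rose and 8.68% fell. Early B cell genes had 8 of 12 higher and 0 lower, with a median log2 fold change of 1.25 and summed levels of 502 to 656 CPM in WT and 751 to 830 CPM in Abcc4-/-. Rag1 and Rag2, which cut DNA at V segments, rose by 1.26 and 1.77 on the log2 scale (edgeR adjusted p = 0.0244 and 1.88e-05). Dntt, which adds bases at the joins, rose from 17.6, 19.0 and 17.8 CPM to 46.3, 40.2 and 41.6 CPM, a log2 fold change of 1.23 (edgeR adjusted p = 1.77e-06). Of 13 genes for cutting and joining, 6 rose and 0 fell. Mature B cell genes had 7 of 12 higher and 1 lower, with sums of 1539 to 1935 and 1814 to 1928 CPM.

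Plasma cell genes, from the antibody-secreting stage, had 2 of 14 higher and 1 lower, beside 17.3% of all genes called in either direction. Their median log2 fold change was 0.12, with sums of 777 to 834 CPM in WT and 759 to 927 CPM in Abcc4-/-. The higher ones were Sdc1, a surface proteoglycan of plasma cells, and Mzb1, a chaperone for antibody assembly, and the lower one Prdm1, a repressor that drives plasma cell formation. Jchain, which links IgM and IgA units, had a log2 fold change of 0.11 (edgeR adjusted p = 0.828). Of 15 factors known to act on V promoters or enhancers, 3 rose and 0 fell, beside the same 17.3% of all genes. The 3 were Tcf3, Spib and Pou2af1, with log2 fold changes of 0.29, 0.66 and 0.91 (edgeR adjusted p = 0.00828, 0.016 and 0.0436). No gene of the early B, mature B and plasma cell lists was at 0 counts in all libraries. T cell genes had 10 of 11 higher, neutrophil genes 8 of 12 higher and 1 lower, and NK cell genes 4 of 9 higher and 1 lower. Beside them, 8.61% of all genes tested rose and 8.68% fell. These lists share some genes, and their part in the V segment values was not tested.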

How the data were processed

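RNA-seq of 3 WT and 3 Abcc4-/- mouse samples was analysed. Per the labels' protocols, libraries came from a stranded mRNA kit and were read as pairs of 100 cycles. The submitters' processing notes name STAR 2.7, RSEM 1.3.1 and mm10, without the gene annotation used. The authors deposited expected counts per gene, not normalized, and TPM, scaled within each sample by length. The 92 spike-in entries were left out. Members and gene lists were chosen with earlier results of these data known.

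Expected counts were rounded and tested over all genes with edgeR 4.0.16 (R 4.3.3): TMM scaling, the default filter on low counts, and the robust quasi-likelihood test with Benjamini-Hochberg adjustment. Genes with an adjusted p below 0.05 were called. CPM values use TMM library sizes, and each SE is the fold change divided by the root of its F statistic. The test was checked on simulated data whose spread was that typical of all genes at a given level. V segments spread more widely, so that check does not show how the test performs for them. Totals, families, positions and concentration are descriptions without p.

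Segments named were the called ones whose groups did not overlap (up to 10 rises and 10 falls), the 5 heavy and 5 kappa segments with the highest mean TPM, the lambda segments, near copies, and the few genes of other lists with the smallest adjusted p, beside others given as background or said to be chosen later. Identity and windows of 100 bases used GENCODE M21 transcripts (GRCm38), which matched all 202 members by versioned identifier. Alternatives were other scalings, DESeq2 1.42.0, limma-voom (limma 3.58.1), other filters, log2(TPM + 1) and log2(TPM + 0.1), which understate changes of low genes, a replicate block, joined copies and each library left out.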

Additional observations from a re-analysis of the deposited data

How the results depend on the processing

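The number of called V segments moved with the test. Against 14 higher and 6 lower, DESeq2, with 198 members, gave 24 and 12. That was 18.2% of these members, beside 17.3% of all genes with an adjusted p. Some of the 198 may lack an adjusted p, so the 2 shares have unlike bases and are not ranked. On log2(TPM + 1) 8 were higher and 3 lower (6.63% of members, 12.8% of all genes). On log2(TPM + 0.1) 7 were higher and 3 lower (6.02% of members, 13.1% of all genes). Leaving out 1 library gave 8 to 15 higher and 2 to 10 lower: 8 and 10 without WT replicate 1, 8 higher without WT replicate 3, 3 lower without Abcc4-/- replicate 2 and 2 lower without Abcc4-/- replicate 3. The share of all genes called then fell too, to between 10.6% and 14.3%, beside 8.09% to 11.9% of members, and without Abcc4-/- replicate 2 the members' 10.59% was at the background of 10.6%. Of the 20 called segments, 6 kept the call without each library, 9 did on both TPM scales, and 13 of the 17 that every other count test and filter tested did under each of them. With the replicate number as a block, 15 were higher and 5 lower (19.1% of all genes called), and 9 of the 20 kept the call. Same-numbered samples are not stated to share an animal or day, so the numbers were not taken as pairs. Their deviations correlated at -0.0119, 0.00141 and 0.09999, and not every sample correlated best with its own number. Differently numbered samples gave -0.080 to 0.086, so these values do not decide whether the samples are pairs.

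Locus totals and effective numbers kept their direction under every alternative run. Without 1 library the log2 ratio of Abcc4-/- to WT ranged from 0.06 to 0.32 for heavy, 0.05 to 0.29 for kappa and 0.32 to 0.79 for lambda totals. Direction turned for Igkv4-61 (0.96), Ighv1-55 (0.088), Igkv1-110 (-0.065), Igkv3-7 (-0.12) and Igkv10-94 (-0.27) when copies were joined, by construction, since each then carries its copies' counts. Others turned with no call on either side, and the cause was not tested: Ighv1-53 with limma-voom (-0.0064), on the TPM scales (-0.0172 and -0.0178) and without WT or Abcc4-/- replicate 1 (-0.20 and -0.38, with a range of -0.38 to 0.39 over single libraries left out), Ighv7-3 without WT replicate 1 (-0.29, range -0.29 to 1.29), and Ighv1-84 without WT replicate 3 or Abcc4-/- replicate 1 (-0.071 and -0.086, range -0.086 to 0.86). Depth limits low segments: 3 counts equal 0.0304 to 0.0591 CPM, and 36 members were too low to test.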
